A study of Mus musculus with 10 samples.

Results

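The genes described here are 5 galectins and the gene of a galectin-binding protein: Lgals1, Lgals3, Lgals4, Lgals8, Lgals9 and Lgals3bp. They were chosen by name, with earlier results of these data known, and make up 6 of the 9352 genes tested. All probes annotated to these symbols in the non-normalized array table were considered. The 6 genes have 9 probes of their own, of which 7 were kept after the filter on dim probes, and the brightest kept probe stands for each gene. A further probe, shared between Lgals8 and Capn2, was above background on 0 of 10 arrays.

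RNA was extracted from mouse brain, strain C57/Bl6, at 10 weeks of age, and measured with Illumina Mouse-6 bead arrays. There were 10 arrays, so that every pairing of genotype with condition had 1. Brain of wild-type mice (WT) and of Cd93 knockout mice (KO) was profiled in all conditions. Cd93 encodes a surface glycoprotein found on endothelium and myeloid cells. Untreated brain was compared with brain after middle cerebral artery occlusion (MCAo), a stroke model in which the vessel is blocked and then reopened. In the 48 h protocol the vessel was closed for 60 min and the tissue was reperfused for 48 h, and in the 72 h protocol it was closed for 30 min and reperfused for 72 h, so that occlusion and reperfusion time changed together. The hemisphere on the side of the blocked vessel (ipsilateral) and the opposite one (contralateral) were profiled separately. The labels give neither the knockout allele, nor the number of mice behind an array, nor whether the same mice gave both hemispheres. In that case arrays would share animals, and p-values between the genotypes would be too small.

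Galectins are lectins that bind beta-galactoside sugars on glycoproteins and glycolipids. They are made in the cytosol, leave the cell without a signal peptide, and crosslink receptors at the surface, while inside the cell some of them mark vesicles whose membrane has broken. Galectin-1 (Lgals1) is a dimer of a single sugar-binding domain, galectin-3 (Lgals3) carries such a domain behind a long tail that lets it assemble, and galectins 4, 8 and 9 each join a pair of domains in 1 chain. In brain, galectin-3 is best known from activated microglia and macrophages after injury.

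The probes of Lgals1, Lgals3bp and Lgals8 were above background on 10 of 10 arrays, those of Lgals3 on 8, of Lgals4 on 6 and of Lgals9 on 4. A probe was called above background at a detection p under 0.01. Between 12811 and 16310 of 46373 probes were above background per array. Cd93, the targeted gene, had less signal in KO than in WT tissue (log2 difference -1.53 ± 0.18, limma adjusted p = 0.00221), and its level was lower in all 5 conditions. With 1 array in each group, the spread of a gene comes from how its differences vary between the genotypes across conditions. In all tests limma drew this spread towards the one typical of all genes. The p-values therefore measure a gene's own steadiness only in part, and their precision is limited by the few arrays. Levels given below are normalized log2 intensities of a probe and differences are log2 differences ± standard error (SE) from a limma model of condition and genotype, with p-values adjusted by Benjamini-Hochberg over all genes and a threshold of 0.05.

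RefSeq start-site windows were matched for 5 of the 6 genes by symbol. Those of the 3 rising genes with a window are shown because interferon is a known inducer of galectin-9 and of the galectin-3 binding protein, and Lgals3 is shown for comparison. Each runs 5′ to 3′ on the strand of the gene, from 250 bases before the annotated start to 50 bases after it (build GRCm38.p6). The Lgals9 window lies at chr11:78984875-78985174 on the minus strand, the Lgals3bp window at chr11:118401910-118402209 on the minus strand, and the Lgals3 window at chr14:47373610-47373909 on the plus strand. Capitals mark matches to the interferon-related motifs named next in Lgals9 and Lgals3bp, and to the GC box in Lgals3.
Lgals9: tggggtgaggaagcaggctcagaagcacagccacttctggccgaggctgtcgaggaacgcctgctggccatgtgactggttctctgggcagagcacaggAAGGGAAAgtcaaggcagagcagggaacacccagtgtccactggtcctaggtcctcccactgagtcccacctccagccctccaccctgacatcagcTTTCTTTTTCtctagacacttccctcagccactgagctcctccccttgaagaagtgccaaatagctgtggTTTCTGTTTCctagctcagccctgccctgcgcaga
Lgals3bp: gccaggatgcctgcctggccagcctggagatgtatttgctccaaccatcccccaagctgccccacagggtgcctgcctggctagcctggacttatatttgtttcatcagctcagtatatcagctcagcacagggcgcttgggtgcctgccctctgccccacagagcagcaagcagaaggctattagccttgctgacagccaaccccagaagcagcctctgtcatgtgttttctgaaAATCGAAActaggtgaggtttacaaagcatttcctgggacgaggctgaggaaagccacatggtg
Lgals3: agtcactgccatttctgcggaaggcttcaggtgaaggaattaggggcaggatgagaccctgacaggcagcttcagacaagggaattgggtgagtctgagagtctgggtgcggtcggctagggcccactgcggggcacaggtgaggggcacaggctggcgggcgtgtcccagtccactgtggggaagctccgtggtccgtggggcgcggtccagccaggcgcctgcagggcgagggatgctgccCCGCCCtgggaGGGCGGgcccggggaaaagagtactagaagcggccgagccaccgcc

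Both strands of each window were searched for 5 motifs. The interferon-stimulated response element (GAAA, any 2 bases, GAAA) was matched in Lgals9 in 2 places, at -55 and +16 from the start site, in both cases on the opposite strand. This motif is in 3.44% of the 32851 promoter windows. The shorter site of interferon regulatory factors (AANNGAAA), in 23.9% of windows, was matched in 3 places in Lgals9, of which 2 lie within the longer matches, and in 1 place in Lgals3bp, at -14. The GC box (GGGCGG), in 35.7% of windows, was matched in 2 places in Lgals3, at -7 and +5, and in 1 place in Lgals4. The AP-1 motif (TGANTCA, in 7.81% of windows) and the GAS motif (TTCNNNGAA, in 8.3%) were matched in none of the 5 windows, and the Lgals8 window held none of the 5 motifs. A match describes the letters of the window and is not a binding site.

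After stroke, 4 of the 6 genes were far higher on the side of the occlusion than on the other side, in both protocols and both genotypes. These were Lgals1, Lgals3, Lgals9 and Lgals3bp, while Lgals8 did not pass and Lgals4 was lower in 1 protocol. Under the 48 h protocol 5 of the 6 genes passed the test, 4 higher and 1 (Lgals4) lower, against 20.7% of all genes (12.7% higher and 8.06% lower). Under the 72 h protocol the same 4 genes were higher and none was lower, against 14.4% of all genes (10.3% higher and 4.13% lower). The median hemisphere difference of the 6 genes was 1.41 under the 48 h protocol, or 1.36 with Lgals9 at the lower bound explained below, against -0.02 for all genes, and 1.94 under the 72 h protocol (1.94 with the bound), against -0.055. In all of the 4 rising genes the lowest ipsilateral array stood above the highest of the 6 other arrays, an order that 11.6% of all genes showed. Lgals9 passed the filter on dim probes only through its 4 ipsilateral arrays. Its order and its call were thus partly fixed by the filter and are given as a description.

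**Figure D1:**
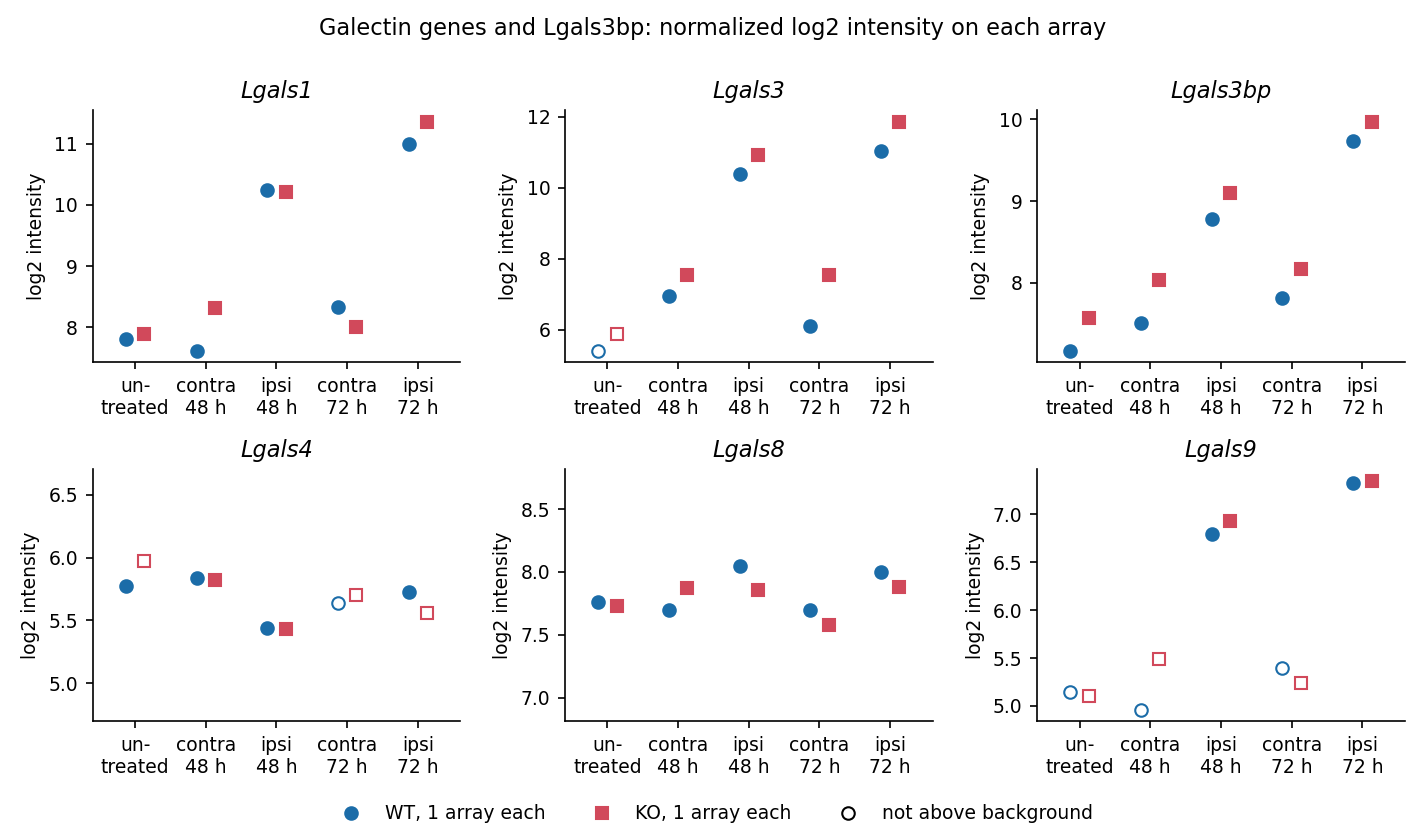
Normalized log2 intensity (y axis) of the probe that stands for each gene, in the 5 conditions (x axis), with 1 WT array (circle) and 1 KO array (square) in each, each panel with its own y axis. Open symbols are arrays on which the probe was not above background. In Lgals1, Lgals3, Lgals3bp and Lgals9 all 4 ipsilateral arrays lie above the 6 others, and in Lgals4 and Lgals8 they do not.

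Galectin-3 showed the largest hemisphere difference of the 6 genes. In WT brain the level of Lgals3 was 5.41 untreated, 6.96 contralateral and 10.39 ipsilateral under the 48 h protocol, and 6.09 contralateral and 11.04 ipsilateral under the 72 h protocol. In KO brain the matching levels were 5.87, 7.54, 10.92, 7.55 and 11.86. Both untreated arrays were below background, the contralateral arrays came next, and the ipsilateral arrays were highest, with no overlap between these 3 sets. The ipsilateral level was higher than the contralateral one by 3.41 ± 0.21 under the 48 h protocol (10.6-fold, limma adjusted p = 3.01e-05), with 3.44 in WT and 3.38 in KO. The 72 h difference was 4.63 ± 0.21 (24.7-fold, adjusted p = 2.18e-06), with 4.94 in WT and 4.31 in KO. Among 9352 genes Lgals3 ranked 4 by this difference under the 48 h protocol and 1 under the 72 h protocol.

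Galectin-1, which is known for dampening T cell responses, rose on the ipsilateral side from a level that was already above background in untreated brain. In WT brain the level of Lgals1 was 7.81 untreated, 7.62 contralateral and 10.24 ipsilateral under the 48 h protocol, and 8.33 and 10.99 under the 72 h protocol. In KO brain it was 7.89, 8.32, 10.21, 8.0 and 11.36 in the same order. The contralateral and untreated arrays were mixed in order, and the 4 ipsilateral arrays stood apart above them. The hemisphere difference was 2.26 ± 0.20 under the 48 h protocol (adjusted p = 0.000107), made of 2.62 in WT and 1.89 in KO. It was 3.01 ± 0.20 under the 72 h protocol (adjusted p = 8.9e-06), made of 2.66 in WT and 3.36 in KO, so neither genotype was the higher one in both protocols.

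Galectin-9, a ligand of the inhibitory receptor Tim-3, was measured above background on the ipsilateral side alone. The WT levels of Lgals9 were 5.15 untreated, 4.96 contralateral and 6.80 ipsilateral under the 48 h protocol, and 5.40 and 7.33 under the 72 h protocol. The KO levels were 5.10, 5.49, 6.93, 5.24 and 7.35, so the 4 ipsilateral arrays were above background and the 6 others were not. Since Lgals9 was not above background on any contralateral array, its fold can only be bounded from below. The bound sets each of those arrays to the dimmest detected signal on it, or to the signal of the probe where that was brighter. Ipsilateral Lgals9 was at least 2.94-fold higher under the 48 h protocol (fitted difference 1.64 ± 0.16, adjusted p = 0.000132) and at least 4.05-fold higher under the 72 h protocol (2.02 ± 0.16, adjusted p = 2.02e-05). A second Lgals9 probe gave at least 2.44-fold (adjusted p over all probes = 0.000133) and at least 3.72-fold (adjusted p = 1.81e-05), and was above background on the same side alone. This probe too passed the filter only through its ipsilateral arrays, so its calls are a description as well. The remaining Lgals9 probe was above background on 0 of 10 arrays, with levels from 4.66 to 5.29, and gave no sign of the rise.

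The galectin-3 binding protein is a secreted glycoprotein that galectins bind and that interferon is known to induce. In WT brain the level of Lgals3bp was 7.17 untreated, 7.51 contralateral and 8.78 ipsilateral under the 48 h protocol, and 7.81 and 9.74 under the 72 h protocol. In KO brain it was 7.57, 8.03, 9.10, 8.17 and 9.97. The ipsilateral arrays were again above the rest, with the smallest gap of the 4 rising genes, 8.78 against 8.17. The hemisphere difference was 1.17 ± 0.11 under the 48 h protocol (adjusted p = 0.000136), with 1.27 in WT and 1.08 in KO. The 72 h difference was 1.87 ± 0.11 (adjusted p = 6.34e-06), with 1.94 in WT and 1.80 in KO.

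Galectin-8 marks damaged vesicles for autophagy, and Lgals8 stayed within a narrow range. The 10 arrays ran from 7.58 (KO contralateral, 72 h protocol) to 8.05 (WT ipsilateral, 48 h protocol), with 7.76 in WT and 7.73 in KO untreated brain. The lowest ipsilateral array, 7.86, was under the highest of the others, 7.87. The hemisphere difference was 0.17 ± 0.12 under the 48 h protocol (95% interval -0.09 to 0.44, adjusted p = 0.321) and 0.30 ± 0.12 under the 72 h protocol (0.03 to 0.56, adjusted p = 0.134). Neither passed the test, and with median centring in place of quantile normalization the 48 h value was 0.67 (adjusted p = 0.00523), where the median of all genes was 0.43.

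Galectin-4, known mainly from gut epithelium and also from neurons, was the 1 member with a lower ipsilateral call after normalization. Detection p-values of the Lgals4 probe ran from 0.0081 to 0.014, at the edge of the threshold on all arrays. Before background correction and normalization, its 48 h intensity was slightly higher ipsilaterally, 81.2 against 79.7 in WT and 86.8 against 83.9 in KO. The ipsilateral levels under the 48 h protocol were 5.44 in WT and 5.43 in KO, against contralateral levels of 5.84 and 5.82. The untreated levels were 5.77 and 5.97, and under the 72 h protocol the contralateral levels were 5.64 and 5.70 and the ipsilateral ones 5.73 and 5.56. Lgals4 was lower on the ipsilateral side under the 48 h protocol (-0.40 ± 0.12, adjusted p = 0.0411), and under the 72 h protocol the difference was -0.02 ± 0.12 (adjusted p = 0.912). The 48 h call was lost in 10 of 20 alternative analyses, among them the removal of either array of either 48 h pair (adjusted p from 0.115 to 0.218) or of a contralateral 72 h array (0.0508), and with median centring, where the median of all genes was 0.43, the difference was -0.08 (adjusted p = 0.646). A second Lgals4 probe was above background on 1 array and was not tested. Its 48 h levels were 5.25 in WT and 5.36 in KO on the ipsilateral side and 4.92 and 5.34 on the contralateral side, so it was not lower ipsilaterally.

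**Figure D2:**
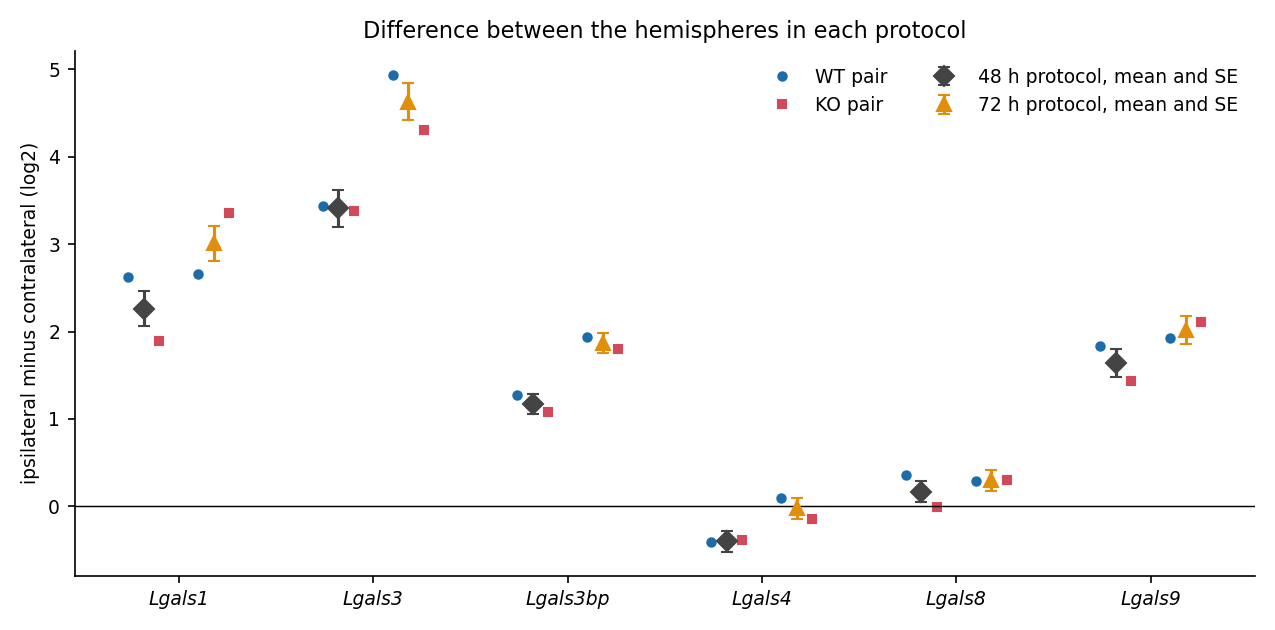
Ipsilateral minus contralateral log2 difference (y axis) of each gene (x axis), as the mean of both genotypes with its SE (diamonds for the 48 h protocol, triangles for the 72 h protocol) and for the WT pair (circles) and the KO pair (squares). Lgals3 has the largest differences, 3.41 and 4.63, and Lgals4 and Lgals8 lie near 0. For Lgals9 the contralateral levels are below background.

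Against untreated brain, the members that passed on the injured side were Lgals1, Lgals3, Lgals3bp and Lgals9 under both protocols, with Lgals4 under the 48 h protocol. Under the 48 h protocol 5 members passed, 4 higher and 1 lower, against 26.8% of all genes (15.7% higher and 11.1% lower). For the 72 h protocol 4 passed, all higher, against 23.6% (14.4% higher and 9.12% lower). Lgals3 was at least 32.3-fold higher under the 48 h protocol (fitted difference 5.01 ± 0.21, adjusted p = 1.61e-06) and at least 55.8-fold higher under the 72 h protocol (5.80 ± 0.21, adjusted p = 2.92e-07). Lgals1 was higher by 2.38 ± 0.20 (adjusted p = 3.81e-05) and 3.32 ± 0.20 (adjusted p = 2.7e-06), and Lgals3bp by 1.57 ± 0.11 (adjusted p = 1.22e-05) and 2.49 ± 0.11 (adjusted p = 7.82e-07). Lgals9 was at least 3.26-fold higher (adjusted p = 5.19e-05) and at least 4.52-fold higher (adjusted p = 6.48e-06), calls that were again partly fixed by the filter on dim probes. Lgals4 was lower by -0.44 ± 0.12 under the 48 h protocol (adjusted p = 0.0231), a call lost without the KO untreated array (-0.32, adjusted p = 0.18) or either ipsilateral 48 h array (adjusted p = 0.14 and 0.111). The Lgals4 call was also lost with no background correction (-0.27, adjusted p = 0.0609) and with median centring (-0.05, adjusted p = 0.736), where the median of all genes was 0.53. Before correction and normalization its ipsilateral 48 h intensity was slightly higher than untreated, 81.2 against 80.6 in WT and 86.8 against 81.9 in KO. The comparisons with untreated brain share their ipsilateral arrays with the hemisphere comparisons.

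The injured hemispheres of both protocols were then set against each other, which cannot separate the shorter occlusion from the longer reperfusion. Of the 6 genes, Lgals1 and Lgals3bp were higher under the 72 h protocol, against 3.35% of all genes that passed (1.85% higher and 1.5% lower). The difference was 0.94 ± 0.20 for Lgals1 (adjusted p = 0.0411) and 0.92 ± 0.11 for Lgals3bp (adjusted p = 0.0064). Lgals3 (0.79 ± 0.21, adjusted p = 0.0688) and Lgals9 (0.47 ± 0.16, adjusted p = 0.125) did not pass. The Lgals1 call was lost without any 1 of the 4 ipsilateral arrays (0.81 to 1.08, adjusted p from 0.148 to 0.305) or either untreated array (0.94, adjusted p = 0.0525). The Lgals3bp call was lost without the KO ipsilateral 48 h (adjusted p = 0.109), WT ipsilateral 48 h (0.0553) or WT ipsilateral 72 h array (0.0724), while Lgals3 passed without either contralateral 72 h array (0.79, adjusted p = 0.0224).

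The hemisphere difference itself was also compared between the protocols. It was larger under the 72 h protocol by 1.22 ± 0.30 for Lgals3 (adjusted p = 0.216), 0.75 ± 0.29 for Lgals1 (adjusted p = 0.382) and 0.70 ± 0.16 for Lgals3bp (adjusted p = 0.202). No member passed this test, and 0 of the 9352 genes did (0%), with 1018 genes at an unadjusted limma p under 0.05. Without the KO contralateral 72 h array the Lgals3 value was 1.65 (adjusted p = 0.0409). In the authors' deposited value table, in which the arrays share their distribution of values in 5 pairs, Lgals3 (1.09, adjusted p = 0.00522) and Lgals3bp (0.65, adjusted p = 0.0326) passed in the same limma test.

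The conditions were ordered by mean level in each gene, and neighbours in that order were tested. Since the order was taken from the same means, it is a description. In Lgals1 and Lgals3bp untreated brain was lowest, followed by the contralateral 48 h, contralateral 72 h, ipsilateral 48 h and ipsilateral 72 h tissue, and in Lgals3 the contralateral conditions changed places. In Lgals1 the means were 7.85, 7.97, 8.16, 10.23 and 11.17, and of the steps between neighbours the one to ipsilateral 48 h tissue (2.06 ± 0.20, adjusted p = 0.000153) and the last one passed the test. In Lgals3 the means were 5.64, 6.82, 7.25, 10.66 and 11.45, and the steps up from untreated and up to ipsilateral 48 h tissue passed, while the contralateral neighbours (0.43 ± 0.21, adjusted p = 0.514) and the ipsilateral ones (0.79 ± 0.21, adjusted p = 0.0688) did not. In Lgals3bp the means were 7.37, 7.77, 7.99, 8.94 and 9.86, where the last 2 steps passed. In Lgals9 the untreated and contralateral levels were below background and have no order. The fitted step of 1.55 ± 0.16 between contralateral 72 h and ipsilateral 48 h tissue passed (adjusted p = 0.000178). That call was also partly fixed by the filter on dim probes. In Lgals4 and Lgals8 no pair of neighbours passed.

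On the side opposite the occlusion, 2 members were higher than in untreated brain, Lgals3 and Lgals3bp, against 1.43% of all genes that passed (1.2% higher and 0.235% lower). Contralateral Lgals3, averaged over both protocols, was at least 2.62-fold higher (fitted difference 1.39 ± 0.18, adjusted p = 0.0107), the rank of 8 among 9352 genes. All 4 contralateral arrays, from 6.09 to 7.55, were above both untreated ones, 5.41 and 5.87, an order that 11.7% of all genes showed. The Lgals3 call was lost without the KO untreated array (1.19, adjusted p = 0.186). That call was also lost with no detection filter (adjusted p = 0.0733) and with genotype left out of the model (adjusted p = 0.187). Contralateral Lgals3bp was higher by 0.51 ± 0.10 (adjusted p = 0.0394), but its WT contralateral 48 h level, 7.51, was below the KO untreated level, 7.57. Its call was lost when any 1 of the 10 arrays was left out (0.46 to 0.56, adjusted p from 0.0518 to 0.27). Lgals1 (0.22 ± 0.18, adjusted p = 0.607), Lgals4 (-0.12 ± 0.10, adjusted p = 0.626) and Lgals8 (-0.03 ± 0.10, adjusted p = 0.914) did not pass, and Lgals9 was below background on both sides of the comparison.

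Between the genotypes, 2 members were higher in KO than in WT brain, again Lgals3 and Lgals3bp, against 1.17% of all genes that passed (0.535% higher and 0.631% lower). Lgals3 was higher in KO brain by 0.46 in untreated tissue, where both arrays were below background, by 0.58 and 0.53 in contralateral and ipsilateral tissue of the 48 h protocol, and by 1.46 and 0.82 in those of the 72 h protocol. Over all conditions the difference was 0.77 ± 0.13 (adjusted p = 0.0265). Lgals3bp was higher by 0.40, 0.52, 0.33, 0.37 and 0.23 in the same order, and by 0.37 ± 0.07 overall (adjusted p = 0.0411). Both genes were higher in KO brain in 5 of 5 conditions, an order that 7.92% of all genes showed.

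Both genotype calls were close to the threshold. That of Lgals3 was lost without either ipsilateral 48 h array (0.83, adjusted p = 0.0596), either contralateral 48 h array (0.82, adjusted p = 0.0606) or either ipsilateral 72 h array (0.76, adjusted p = 0.114). That of Lgals3bp was lost without any 1 of the 10 arrays (0.33 to 0.40, adjusted p from 0.0697 to 0.126). Lgals1 (0.16 ± 0.13, adjusted p = 0.551), Lgals4 (0.01 ± 0.07, adjusted p = 0.948), Lgals8 (-0.06 ± 0.08, adjusted p = 0.73) and Lgals9 (0.09 ± 0.10, adjusted p = 0.646) did not pass, and for Lgals1 KO was above WT in 3 of 5 conditions. Whether the genotype difference was another one in ipsilateral tissue than elsewhere was tested with an interaction term. It was -0.16 ± 0.28 for Lgals3 and -0.15 ± 0.15 for Lgals3bp (adjusted p = 0.998 for both). No member passed, nor did any gene (0%), with 359 genes at an unadjusted limma p under 0.05.

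**Figure D3:**
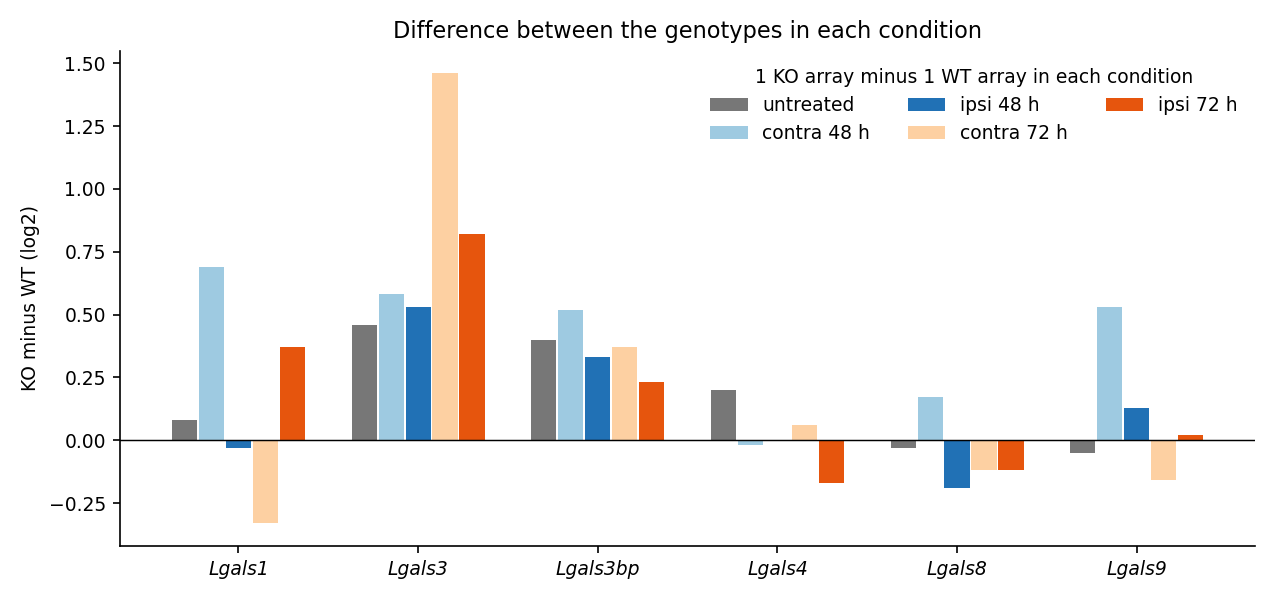
KO minus WT log2 difference (y axis) of each gene (x axis) in the 5 conditions (bars, 1 KO array minus 1 WT array each, so without error bars). All 5 bars are above 0 for Lgals3 (0.46 to 1.46) and Lgals3bp (0.23 to 0.52), and the bars of the 4 other genes fall on both sides of 0.

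Markers of several cell types moved with these differences. In such whole-tissue RNA, more cells of a type and more RNA per cell cannot be told apart. Of 12 microglia and macrophage markers 7 were tested, of which 6 were higher ipsilaterally under the 48 h protocol (median 1.01) and 7 under the 72 h protocol (median 1.86). Their summed normalized intensity was 1955 to 2150 in untreated, 2492 to 3161 in contralateral, 5762 to 6537 in ipsilateral 48 h and 10939 to 11030 in ipsilateral 72 h tissue, and P2ry12 and Itgam were above background on at most 1 array. The part of these cells in the galectin differences was not tested. Of 12 markers of blood-borne myeloid cells 6 were tested, with 4 higher and 1 lower under the 48 h protocol (median 0.85) and 1 higher under the 72 h protocol (median 0.69, or 0.48 with 2 genes at their bound), and Ccr2, Plac8, Ngp and Ltf were above background on at most 1 array. Their summed intensity was 837 to 981 untreated, 1036 to 1788 contralateral, 2262 to 3002 ipsilateral 48 h and 1540 to 3097 ipsilateral 72 h.

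The counts of all marker lists, also the microglial and blood-borne myeloid ones, stand against the shares of all genes. These were 12.7% higher and 8.06% lower under the 48 h protocol, and 10.3% and 4.13% under the 72 h protocol. Of endothelial markers 6 of 9 were higher and 1 lower under the 48 h protocol and 5 higher under the 72 h protocol (medians 0.86 and 0.97), of astrocyte markers 3 of 8 were higher in each (0.27 and 0.26), of oligodendrocyte markers 3 and 4 of 9 were higher (0.08 and 0.37), and of neuronal markers 2 and 1 of 9 were lower (-0.20 and -0.23). Of 10 lymphocyte markers 1 was tested and it did not pass. Of all genes, 1.2% were higher and 0.235% lower in contralateral than in untreated tissue. For this comparison, C1qb was the 1 microglial marker of 7 that was higher (0.77 ± 0.13, adjusted p = 0.0278, list median 0.43), and no blood-borne myeloid marker was. The astrocyte marker Gfap (1.26 ± 0.13, adjusted p = 0.00457) and the endothelial markers Vwf (0.94 ± 0.14, adjusted p = 0.0169) and Slc2a1 (0.69 ± 0.13, adjusted p = 0.0368) were higher contralaterally as well, and the oligodendrocyte marker Opalin was lower (-0.77 ± 0.11, adjusted p = 0.0159). The part of these cells in the contralateral galectin differences was not tested. Between the genotypes 0 of 7 microglial markers (median 0.15) and 0 of 6 blood-borne myeloid markers (median 0.55) passed, nor did any marker of the other lists, against 1.17% of all genes. A summed intensity leans on the brightest genes of a list, and the share of each marker was not tested. Of the tested blood-borne myeloid markers, Ly6c1 alone was above background on 10 arrays. The summed intensity of this list was higher in KO than in WT tissue in 4 of 5 conditions, with 3097 against 1540 ipsilaterally under the 72 h protocol. That of endothelial markers was higher in KO tissue in 5 of 5 conditions, with 10722 against 6379 there, that of oligodendrocyte and circulating blood markers in 5 of 5, that of microglial and astrocyte markers in 3 of 5, and that of neuronal markers in 0 of 5. The part of these cells in the genotype differences of Lgals3 and Lgals3bp was not tested.

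The genes whose levels most resembled those of each member over the 10 arrays were named by Pearson correlation, as a description, since the arrays share the same division into ipsilateral and other tissue. For Lgals3 these were Cyba (0.996), a subunit of the phagocyte oxidase, Capg (0.995), an actin-capping protein of macrophages, the chemokine gene Ccl3 (0.995), the nucleotide receptor gene P2ry6 (0.994) and Tspo (0.993), a mitochondrial membrane protein used as an imaging target for activated microglia. For Lgals1 they were Lgals9 (0.995), Nckap1l (0.994), Adgre1 (0.993), which encodes the macrophage antigen F4/80, Tln1 (0.992) and the lysozyme gene Lyz2 (0.992). Lgals9 shared Adgre1 (0.996), Lgals1 (0.995), Lyz2 (0.994) and Nckap1l (0.992), followed by Casp8 (0.991), although its levels on 6 arrays were below background. For Lgals3bp they were Fcer1g (0.992), an adaptor of Fc receptors, Slco2b1 (0.992), the class I gene H2-T22 (0.991), the tetraspanin gene Cd9 (0.989) and the complement gene C1qc (0.986).

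Lgals8 and Lgals4 resembled other genes less closely. For Lgals8 the nearest were Fmnl2 (0.924), the astrocyte gap junction gene Gja1 (0.923), Dock11 (0.913), Map4k1 (0.909) and Arhgef6 (0.905). For Lgals4 they were Rgs9bp (0.972), Ube3a (0.961), Kpna4 (0.958), Olfr135 (0.951) and the neuropeptide gene Adcyap1 (0.951). The Lgals4 probe lies at the edge of detection, and all of these but Adcyap1 were about as dim, with levels from 5.06 to 6.15. The part of this dimness in the correlations was not tested. Among the members, the 4 rising genes correlated with each other at 0.953 to 0.995, and Lgals4 with the 5 others at -0.696 to -0.472.

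Of the remaining galectin genes, Lgals2, Lgals7, Lgals12 and Grifin were not kept by the filter, and no probe was assigned to Lgals6. The 1 that was tested, Lgalsl, a galectin-related gene, had hemisphere differences of 0.13 (adjusted p = 0.539) and -0.03 (adjusted p = 0.909).

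Of 40 genes for proteins described as receptors or ligands of galectins, 28 were tested. Under the 48 h protocol 14 were higher ipsilaterally and 2 were lower, against 12.7% of all genes higher and 8.06% lower, with a median of 0.40 against -0.02 for all genes. Cd44, the hyaluronan receptor, led with 2.47 ± 0.19 (adjusted p = 5.86e-05), followed by the tetraspanin gene Cd63 (1.38 ± 0.11), fibronectin (Fn1, 1.24 ± 0.16) and the TGF-beta receptor gene Tgfbr2 (1.18 ± 0.13). The lower ones, named after their values were seen, were Kdr (-0.48 ± 0.12), a VEGF receptor of endothelium, and Igf1r (-0.39 ± 0.11). In the 72 h protocol 12 were higher and 0 lower, against 10.3% and 4.13% of all genes (median 0.39, against -0.055), with Cd44 at least 5.49-fold higher, Trem2, a lipid receptor of microglia, higher by 1.82 ± 0.13, Cd63 by 1.70 ± 0.11 and Fn1 by 1.63 ± 0.16. Havcr2, which encodes Tim-3 and was singled out after its values were seen, was higher ipsilaterally by 0.86 ± 0.16 (adjusted p = 0.00478) and 1.42 ± 0.16 (adjusted p = 0.00018). It was the 1 gene of the 28 that was higher in contralateral than in untreated tissue (at least 1.8-fold, adjusted p = 0.015), against 1.2% of all genes. Of the 28, Lamp1, Lamp2 and Pdcd6ip are also in the damaged lysosome list below. Kdr is also an endothelial marker and Mag an oligodendrocyte marker, so these genes count in those lists too.

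Of 22 genes for enzymes that build, branch or cap the sugar chains galectins bind, 15 were tested. For the 48 h protocol 4 were higher and 1 was lower (median 0.31), and under the 72 h protocol 4 were higher (median 0.30), against 12.7% of all genes higher and 8.06% lower, and 10.3% and 4.13%, in turn. B4galt1, which adds galactose, was at least 2.41-fold and at least 2.51-fold higher. B4galt1 and B3gnt5 passed the filter on dim probes only through ipsilateral arrays. Their calls, included in these counts, were thus partly fixed by the filter and are given as a description. Under the 48 h protocol B3gnt5 was at least 1.45-fold higher, Gcnt2 was higher by 0.69 ± 0.18, St6gal1 by 0.40 ± 0.12 and B4galt6 was lower (-0.49 ± 0.11). Under the 72 h protocol the branching enzyme gene Gcnt1 was higher by 0.93 ± 0.26, and the sialyltransferase genes St3gal6 by 0.53 ± 0.14 and St6gal1 by 0.48 ± 0.12.

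Genes of the response to damaged lysosomes, in which galectins 3, 8 and 9 take part, were tested in 16 of 23 cases. Under the 48 h protocol 6 were higher and 0 lower, against 12.7% and 8.06% of all genes (median 0.16), led by the lysosomal protease gene Ctsd (1.14 ± 0.13), the lysosomal membrane gene Lamp2 (1.08 ± 0.13), the autophagy receptor gene Tax1bp1 (0.78 ± 0.15) and the protease gene Ctsb (0.77 ± 0.11). Under the 72 h protocol 3 were higher, Ctsd (1.78 ± 0.13), Ctsb (0.94 ± 0.11) and Lamp2 (0.93 ± 0.13), and Ube2ql1, a ubiquitin-conjugating enzyme gene, was lower (-0.41 ± 0.11). The median there was 0.07, and with 10.3% of all genes higher and 4.13% lower these 4 calls among 16 genes are no result about the list.

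Of 28 interferon-stimulated genes, a class to which Lgals9 and Lgals3bp are often assigned but which was counted without them, 17 were tested. All 17 were higher ipsilaterally under the 48 h protocol, against 12.7% of all genes (median 1.23, against -0.02). For the 72 h protocol 15 of 17 were higher, against 10.3% of all genes (median 1.27, against -0.055). Under the 48 h protocol Ifitm3 was higher by 2.05 ± 0.25, Ifi27l2a was at least 3.72-fold higher, and Irgm1 and Rsad2 were higher by 1.93 ± 0.16 and 1.55 ± 0.23. Under the 72 h protocol Ifi27l2a was higher by 2.78 ± 0.18, the antiviral membrane gene Bst2 by 2.20 ± 0.12, the immunoproteasome gene Psmb8 by 1.88 ± 0.16 and Ifitm3 by 1.87 ± 0.25. Of these genes 0 of the 17 passed in the contralateral comparison and 0 in the genotype comparison, with list medians of 0.07 and 0.21. With 1.43% and 1.17% of all genes passing there, 0 of 17 is no result about the list.

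**Figure D4:**
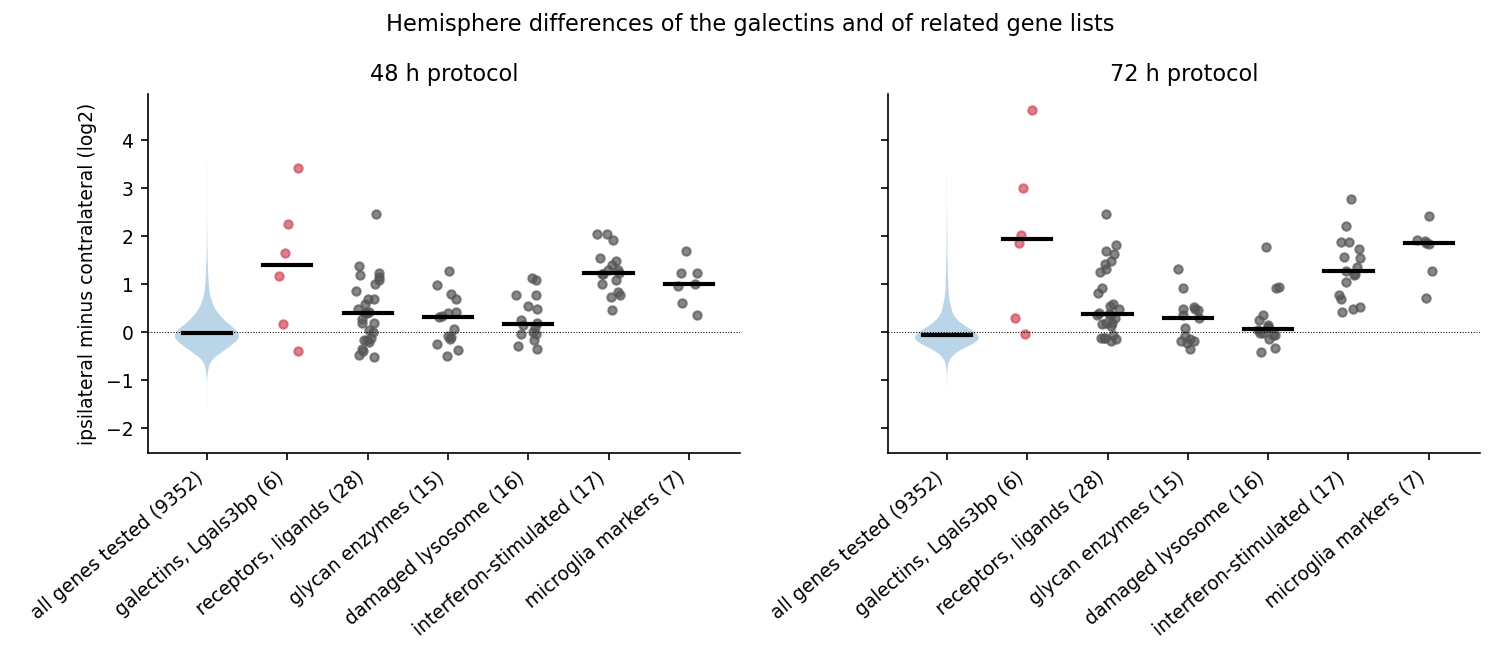
Ipsilateral minus contralateral log2 difference (y axis) under the 48 h protocol (left) and the 72 h protocol (right), for all 9352 genes as a violin and for each gene of the lists as a point (x axis, number of genes in brackets), with list medians as black bars. Points are fitted values, also for genes below background contralaterally. The medians of the galectin genes are 1.41 and 1.94, against -0.02 and -0.055 for all genes.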

How the data were processed

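Total RNA of 10 samples was hybridised to Illumina arrays. A linear bead intensity per probe and array was deposited without normalization, per the file headers. The deposited detection p-value runs as 1 minus p and was turned round. The authors' value table holds intensity whose sorted values are equal within 5 pairs of arrays, from which normalization within pairs was inferred, since no source used here states it. It served only as an alternative. The software used upstream is not given in the sources used here.

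With limma 3.58.1 in R 4.3.3, intensities were background-corrected (nec, offset 16, negative controls inferred from detection p), quantile-normalized and turned to log2. The filter kept 16067 probes that were detected (p under 0.01) on 2 or more arrays, and the brightest stood for each gene. A gene dim elsewhere could pass it through ipsilateral arrays alone, which partly fixes its ipsilateral call, also in the lists. The additive model had 4 residual degrees of freedom, the one with the interaction 3. The calculation was tested on simulated data. RefSeq served for names and promoter windows. Alternatives changed background correction, normalization, filter, probes, variance prior, model and arrays.

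The members, lists and tests were chosen with earlier results of these data known. All members and their probes were named, with Cd93, up to 4 of the most changed passing genes of each list and comparison, and the 5 nearest genes of each member. List medians use fitted values.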

Additional observations from a re-analysis of the deposited data

How the results depend on the processing

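The hemisphere differences of Lgals1, Lgals3, Lgals3bp and Lgals9 kept their direction and passed in all alternatives that measured them, with ranges of 1.92 to 2.74, 3.16 to 3.90, 1.06 to 1.68 and 1.12 to 2.0 under the 48 h protocol, and 2.70 to 3.31, 4.2 to 5.06, 1.73 to 1.98 and 1.43 to 2.17 under the 72 h protocol. Of 987 alternative values of 54 results of single genes, 910 stayed on their side of the threshold, 67 no longer passed, 10 newly passed and 0 reversed, and 28 of the 910 changed sign where neither setting passed.

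The number of members called changed as follows. With detection on all arrays, which leaves out Lgals3, Lgals4 and Lgals9, it was 2 in place of 5 and 4 between the hemispheres (48 h and 72 h protocols), 2 in place of 5 and 4 against untreated brain, 1 in place of 2 contralaterally and 1 in place of 2 between genotypes. With no detection filter it was 1 between the ipsilateral hemispheres, 0 contralaterally and 0 between genotypes. With median centring it was 1 between the ipsilateral hemispheres, 1 between genotypes, and 5 in place of 4 against untreated brain at 72 h (Lgals8 0.49, adjusted p = 0.0391). With every probe tested it was 1 contralaterally and 1 between genotypes. Without genotype in the model it was 0 between the ipsilateral hemispheres and 0 contralaterally, and without condition 0 between genotypes. For the difference of hemisphere differences it was 2, against 0, in the value table of the authors, where the model and the arrays used differed as well. Leaving out 1 array gave 4 to 5 in both 48 h comparisons (between hemispheres and against untreated brain), 0 to 3 between the ipsilateral hemispheres, 0 to 1 for the hemisphere differences, 0 to 1 contralaterally and 0 to 1 between genotypes. The causes of these changes were not tested.

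Over all genes, the number called ranged from 585 (without the KO ipsilateral 48 h array) to 4925 (median centring) around 1939 between the hemispheres of the 48 h protocol, from 582 to 2316 around 1348 for the 72 h protocol, from 1 to 1727 around 313 between the ipsilateral hemispheres, and from 0 to 185 around 0 for the hemisphere differences. It ranged from 3 to 214 around 134 contralaterally, from 1066 to 6406 around 2507 and from 1044 to 2740 around 2203 against untreated brain, from 29 to 224 around 109 between genotypes, and from 0 to 4 around 0 for the interaction. Median centring moved the median of all genes to 0.43 between the 48 h hemispheres, where 99.1% of calls were higher against 61.1%, and to -0.26 between the ipsilateral hemispheres, where 5.04% were higher against 55.3%. It also moved the median to 0.53 and 0.24 against untreated brain (48 h and 72 h, with 98.7% and 95.1% of calls higher against 58.5% and 61.3%), to -0.33 for the hemisphere differences and to 0.13 contralaterally. Between the 72 h hemispheres 94.1% of calls were higher with it and 57% in the authors' table, against 71.4%. Relative to that median, Lgals1 was 2.31 higher between the 48 h hemispheres, against 2.28 in the quantile-normalized values. The authors' value table was not run for comparisons across its pairs, and it was fitted only with the block model described below. The labels give no replicate numbers and do not say whether the hemispheres share mice. With each genotype and protocol as a replicate block on the 8 arrays after occlusion, chosen after seeing the data, 5 and 4 members passed between the hemispheres and 0 for their difference, so no member's call changed, and 2862 and 1988 of all genes passed between the hemispheres. Lgals4, Lgals9 and untreated Lgals3 lie at or under background, which limits their values.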
